A study of Mus musculus with 9 samples.

Results

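The 7 genes described here code for the core of MHC class II antigen presentation: H2-Aa, H2-Ab1 and H2-Eb1 (chains of the class II molecules), Cd74 (the invariant chain), H2-DMa and H2-DMb1 (the 2 chains of the peptide editor H2-DM) and Ciita (the transcriptional coactivator of the family). They were taken by symbol from the raw count table, which holds 49315 gene IDs. All 7 passed the filter on low counts, as did 18492 genes in all. RNA was measured in whole brains of male wild-type C57BL/6J mice fed ad libitum, 5 young animals aged 3 months and 4 old animals aged 33 months, with 1 library per brain. The question was how the transcript levels of the class II genes differed between old and young brains. Total counts per library ranged from 14229259 to 21150439.

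MHC class II molecules display peptides from endosomes to CD4+ T cells. An alpha and a beta chain assemble with the invariant chain, which fills the groove and routes the complex to endosomes, where cathepsins cut it down and H2-DM exchanges the remnant for a peptide. H2-Aa and H2-Ab1 code for the alpha and beta chain of I-A, and H2-Eb1 codes for the beta chain of I-E, whose alpha chain C57BL/6 mice do not make. Transcription of these genes needs Ciita, which does not bind DNA itself but is held at their promoters by RFX, CREB and NF-Y on the X and Y boxes. In the healthy brain, class II transcripts are known mainly from microglia and from macrophages at the brain's borders, and neurons lack them.

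The promoters are shown so that this element can be read beside the values of the genes. RefSeq promoters on GRCm38.p6 were found for 4 of the 7 genes, namely H2-Aa, H2-Eb1, H2-DMb1 and H2-DMa. The 110 bases before each start site are printed 5′ to 3′ on the gene's own strand. Capitals mark an X box core, searched as CNNGNAAC, followed by a Y box core, searched as TGATTGG, with 15 to 45 bases between them. The stretches are chr17:34287824-34287933 on the minus strand for H2-Aa and, on the plus strand, chr17:34305757-34305866 for H2-Eb1, chr17:34153081-34153190 for H2-DMb1 and chr17:34122722-34122831 for the upstream one of the 2 starts listed for H2-DMa.
H2-Aa: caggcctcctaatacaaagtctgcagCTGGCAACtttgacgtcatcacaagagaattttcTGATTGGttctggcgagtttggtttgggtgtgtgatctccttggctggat
H2-Eb1: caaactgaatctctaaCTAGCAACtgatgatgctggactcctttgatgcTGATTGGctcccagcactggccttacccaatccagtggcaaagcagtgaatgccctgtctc
H2-DMb1: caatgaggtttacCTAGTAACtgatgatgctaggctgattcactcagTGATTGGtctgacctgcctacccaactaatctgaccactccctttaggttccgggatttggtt
H2-DMa: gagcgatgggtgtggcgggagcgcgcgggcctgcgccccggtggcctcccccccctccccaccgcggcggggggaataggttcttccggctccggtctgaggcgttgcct

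The X box core began 84, 94 and 97 bases upstream of the start in H2-Aa, H2-Eb1 and H2-DMb1, and 25 or 26 bases separated it from the Y box core. No such pair of motifs was found in the 250 bases upstream of either H2-DMa start. The neighbouring gene Brd2, on the minus strand, starts at 34122634, just before the printed H2-DMa stretch. Which of the genes that stretch serves was not tested, nor was any link between the motifs and the changes with age. Of 4 other class II genes in the table, H2-Oa, H2-Ob and H2-Eb2 held the pair and H2-DMb2 did not. Of the 32851 promoters in the table, 33.3% held CNNGNAAC in the same window, 7.23% held TGATTGG and 0.201% held the spaced pair. These shares count matches on either strand, whereas the pair in the class II genes was searched on the gene's own strand only. These motifs were chosen after the class II promoters had been read, so the matches are a description. The annotation used for positions below starts H2-DMb1 and H2-DMa further upstream than RefSeq does.

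5 of the genes lie together in the class II region of chromosome 17 on GRCm38: H2-DMa (34119541 to 34139101), H2-DMb1 (34153072 to 34160230), H2-Ab1 (34257689 to 34269419) and H2-Eb1 (34305867 to 34316674) on the plus strand, and H2-Aa (34282744 to 34287823) on the minus strand. Ciita lies on chromosome 16 (10480059 to 10528418, plus strand) and Cd74 on chromosome 18 (60803848 to 60812652, plus strand). H2-DMa shared 360 of its 3448 exon bases with Brd2 on the opposite strand, and Ciita shared 329 of 9535 with Dexi on the opposite strand. H2-DMb1 has a close copy in H2-DMb2, and H2-Eb1 in H2-Eb2, and reads that match both copies are not unique, so these levels are uncertain.

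Young replicate 4 stood apart from the other young mice in several immune and glial gene lists. Old replicate 4 held the highest level of red blood cell transcripts among the old mice. Both were kept, and values without them are given beside the results they changed.

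All 7 genes were lowly expressed in whole brain. Counts ranged from 14 for H2-DMb1 in young replicate 1 to 317 for Cd74 in young replicate 4, so counting error alone amounted to between 5.62% and 26.7% of a single value. Per length, in the TPM values of the authors, Cd74 had a mean of 11.6 ± 7.12 TPM (SD, n = 5) in young and 17.8 ± 3.97 TPM (SD, n = 4) in old brains, and H2-DMa of 10.8 ± 1.72 and 10.2 ± 1.33 TPM. Cd74 was the highest of the 7 in the old brains. In the young brains it exceeded H2-DMa in young replicate 4 alone, without which the means were 8.58 ± 2.57 TPM for Cd74 and 10.7 ± 1.96 TPM for H2-DMa (SD, n = 4). The class II chains came next, in both ages in the order H2-Eb1 (4.98 ± 0.976 and 8.49 ± 1.87 TPM), H2-Ab1 (3.71 ± 1.09 and 6.01 ± 1.36 TPM) and H2-Aa (2.82 ± 0.696 and 4.65 ± 0.999 TPM). H2-DMb1 (2.16 ± 0.871 and 3.43 ± 0.368 TPM) and Ciita (1.54 ± 0.151 and 1.32 ± 0.0884 TPM) were lowest. Neighbours in this order overlapped in the young brains except H2-DMa and H2-Eb1. In the old brains Cd74 lay above H2-DMa, H2-Aa above H2-DMb1 and H2-DMb1 above Ciita in every pair of mice, and the other neighbours overlapped. H2-DMa was thus listed at about 5 times the TPM of its partner chain in young brains (from 10.8 and 2.16 TPM).

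The 3 classical chains rose together in old brains. All further levels are CPM, counts scaled to the size of the library, with a TMM factor per library that compensates for differences in composition. H2-Aa was at 2.35, 1.22, 1.51, 2.8 and 2.53 CPM in young replicates 1 to 5 and at 3.03, 4.16, 3.23 and 4.7 CPM in old replicates 1, 3, 4 and 5. Each old brain was above each young brain. On the log2 scale H2-Aa rose by 0.84 (SE 0.23, 95% confidence interval 0.35 to 1.32, adjusted p = 0.03), a fold change of 1.78.

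H2-Ab1, the partner of H2-Aa in I-A, was at 2.2, 1.55, 2.27, 3.67 and 2.1 CPM in the young brains and at 3.88, 4.16, 3.56 and 5.34 CPM in the old ones. Only young replicate 4, at 3.67 CPM, reached into the old range, where it passed old replicate 4 by a small margin. H2-Ab1 rose by 0.83 on the log2 scale (SE 0.21, interval 0.37 to 1.28, adjusted p = 0.023).

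H2-Eb1, the I-E beta chain, was at 2.35, 1.94, 1.51, 3.53 and 2.35 CPM in the young brains and at 3.35, 4.09, 4.54 and 5.4 CPM in the old ones. Young replicate 4 was again the only young brain that overlapped with an old one, here old replicate 1. H2-Eb1 rose by 0.87 on the log2 scale (SE 0.21, interval 0.42 to 1.33, adjusted p = 0.018). Without young replicate 4 the changes of H2-Aa, H2-Ab1 and H2-Eb1 were 0.97, 1.06 and 1.08, or 1.96-fold, 2.09-fold and 2.11-fold (adjusted p = 0.016, 0.0021 and 0.0028).

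Cd74, the invariant chain, was at 3.29, 4.32, 5.09, 15.3 and 4.94 CPM in the young brains and at 8.34, 10.6, 10.7 and 13.7 CPM in the old ones. Young replicate 4 held the highest Cd74 level of all 9 mice, and the other 4 young brains lay below every old brain. With all mice, the log2 fold change was 0.68 (SE 0.35, interval -0.06 to 1.43) and did not pass the test (adjusted p = 0.23). Without young replicate 4 it was 1.31 (SE 0.16, interval 0.95 to 1.66, adjusted p = 0.00025), a fold change of 2.47. In this fit the call for Cd74 therefore depended on this 1 library. With all mice it did pass in a test of the TPM values (0.7, adjusted p = 0.0037 in limma on log2(TPM + 1)), so the call also depended on the measure and method.

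**Figure D1:**
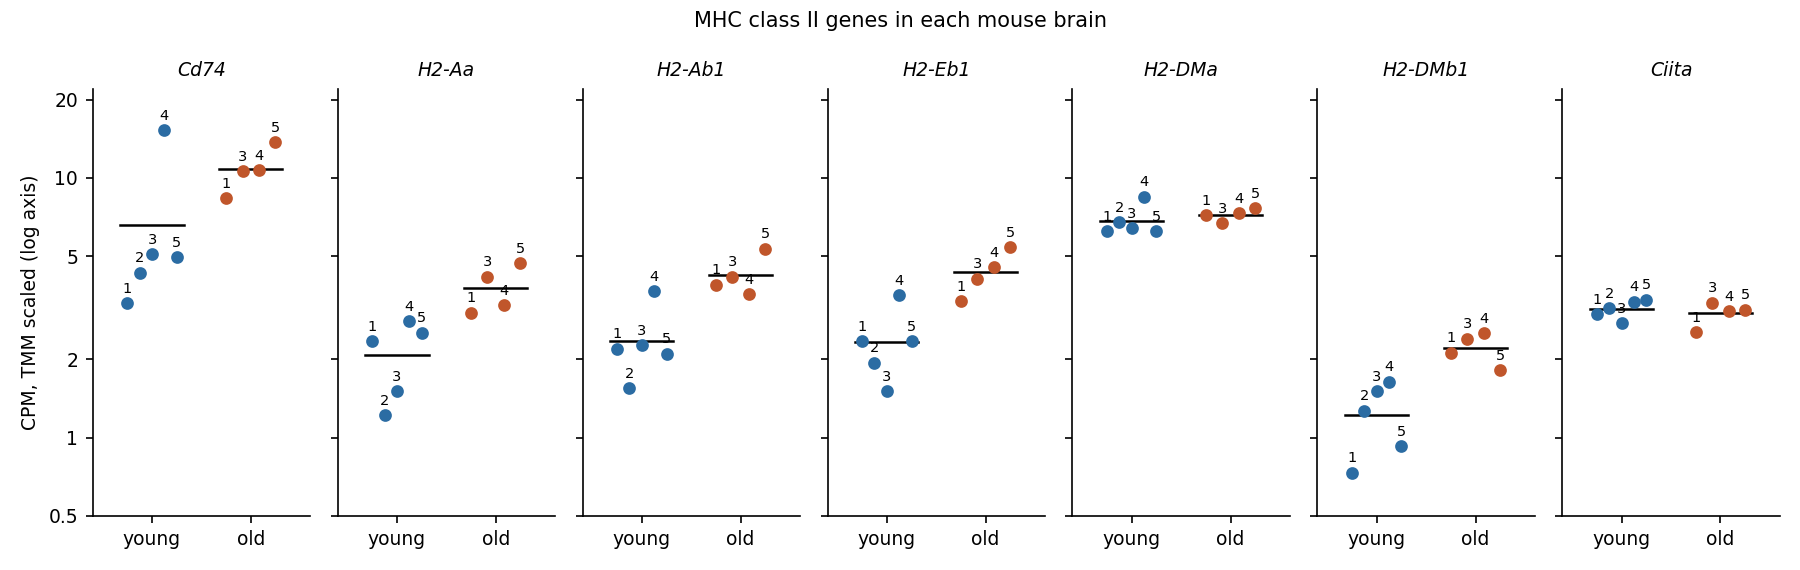
Level of each class II gene (CPM, TMM scaled, log axis) in every mouse, with young brains in blue and old brains in orange. Digits give the replicate and black lines the group means. H2-Aa and H2-DMb1 did not overlap between ages, Cd74 overlapped through young replicate 4 at 15.3 CPM, and H2-DMa and Ciita overlapped between ages.

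The chains of H2-DM behaved differently from each other. H2-DMb1 was at 0.732, 1.27, 1.51, 1.64 and 0.927 CPM in the young brains and at 2.12, 2.4, 2.52 and 1.82 CPM in the old ones, with no overlap. It rose by 0.86 on the log2 scale (SE 0.23, interval 0.37 to 1.35, adjusted p = 0.027), or 1.81-fold. H2-DMa was at 6.22, 6.75, 6.39, 8.45 and 6.24 CPM in the young brains and at 7.17, 6.7, 7.33 and 7.63 CPM in the old ones. The highest value was that of young replicate 4, and the groups overlapped. The log2 fold change of H2-DMa was 0.08 (SE 0.11, interval -0.16 to 0.31, adjusted p = 0.70). Without young replicate 4 it was 0.17 (interval -0.03 to 0.38, adjusted p = 0.28), so that a rise as large as that fitted for H2-DMb1 lay outside both intervals. Brd2, which overlaps 10.4% of the H2-DMa exon bases, was far more abundant, with 193 ± 8.8 CPM (SD, n = 5) in young brains and 204 ± 10.7 CPM (SD, n = 4) in old brains (log2 fold change 0.08, SE 0.044, adjusted p = 0.28). Whether reads of Brd2 were counted for H2-DMa was not tested.

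Ciita showed no change that the test could detect. It was at 2.98, 3.15, 2.75, 3.33 and 3.4 CPM in the young brains and at 2.55, 3.31, 3.06 and 3.11 CPM in the old ones. The highest and the lowest value differed by less than in any other gene of the family, and the ages overlapped. The log2 fold change was -0.06 (SE 0.14, interval -0.35 to 0.23, adjusted p = 0.82). Dexi, which shares 3.45% of the Ciita exon bases, had a mean of 37.5 ± 1.41 CPM (SD, n = 5) in the young brains, and of 34.3 ± 1.11 CPM (SD, n = 4) in the old ones (log2 fold change -0.13, adjusted p = 0.09).

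In all, 4 of the 7 class II genes were higher in old brains (adjusted p below 0.05), none was lower, and 3 did not pass. Of all tested genes, 6.20% were higher and 4.83% lower, or 11.0% in either direction. All 4 also passed an absolute log2 fold change of 0.58, which 2.28% of the tested genes did in the higher direction. In 2 of the 7 genes every old brain was above every young brain, a pattern found in 6.50% of the tested genes. Without young replicate 4, 5 of 7 genes were higher, against 6.33% of all tested genes, and 5 of 7 did not overlap, against 8.75%. The median log2 fold change of the 7 genes was 0.83, beside -0.0 over all tested genes. The calls were close to the threshold: leaving out 1 mouse at a time gave between 1 and 5 called genes, with the 1 (H2-DMb1) obtained without old replicate 5, the old brain with the highest H2-Aa, H2-Ab1, H2-Eb1 and Cd74. 2 genes were called without young replicate 1, young replicate 5 or old replicate 3, and 3 without young replicate 3, old replicate 1 or old replicate 4. The direction of the classical chains, Cd74 and H2-DMb1 was the same each time. In bulk RNA, more cells of a type and more RNA per cell cannot be told apart.

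**Figure D2:**
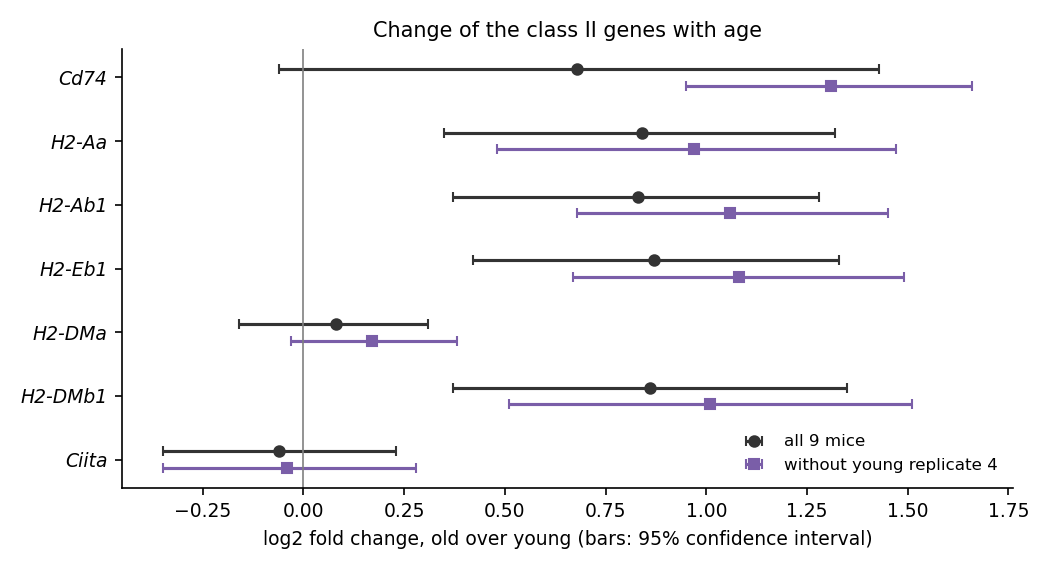
Log2 fold change (old over young) of the 7 class II genes with 95% confidence intervals, from all 9 mice (circles) and without young replicate 4 (squares). H2-Aa, H2-Ab1, H2-Eb1 and H2-DMb1 lie between 0.83 and 0.87 with all mice, Cd74 moves from 0.68 to 1.31, and the intervals of H2-DMa and Ciita include 0.

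To compare the genes with each other, ratios were taken within each mouse, where library scaling has almost no part. 6 ratios were tested by a two-sided exact permutation test over the 126 splits of the 9 mice, with p-values adjusted over the 6. Among the chains and Cd74 no change in proportion was detected. The log2 ratio of H2-Aa to H2-Ab1 was -0.18 ± 0.34 (SD, n = 5) in young and -0.17 ± 0.14 (SD, n = 4) in old brains, and that of H2-Eb1 to H2-Ab1 was -0.01 ± 0.33 and 0.03 ± 0.23. The differences of 0.01 and 0.04 were smaller than the spread between mice (permutation p = 0.976 and 0.865). The ratio of Cd74 to H2-Ab1 was 1.26 ± 0.53 and 1.33 ± 0.19 (permutation p = 0.81). In young replicate 4 it was 2.03, against 0.56 to 1.41 in the other young brains and 1.08 to 1.55 in the old ones. Its excess in that mouse was thus larger for Cd74 than for H2-Ab1.

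H2-DMa and Ciita were lower relative to H2-Ab1 in old brains. Ratios to the other chains were not tested. The log2 ratio of H2-DMa to H2-Ab1 was 1.46, 2.04, 1.45, 1.18 and 1.52 in the young brains and 0.87, 0.67, 1.02 and 0.51 in the old ones, a difference of -0.76 with no overlap (permutation p = 0.0159, adjusted permutation p = 0.0476). The ratio of Ciita to H2-Ab1 was 0.42, 0.97, 0.27, -0.13 and 0.67 in the young brains and -0.58, -0.32, -0.21 and -0.76 in the old ones, a difference of -0.91 with no overlap (permutation p = 0.0159, adjusted permutation p = 0.0476). Ciita counts thus exceeded H2-Ab1 counts in 4 of 5 young brains and in 0 of 4 old brains. The ratio of H2-DMb1 to H2-DMa was -2.9, -2.31, -2.0, -2.29 and -2.61 in the young brains and -1.7, -1.44, -1.5 and -2.0 in the old ones, a difference of 0.76 (permutation p = 0.0238, adjusted permutation p = 0.0476), with young replicate 3 and old replicate 5 at nearly the same value. With 9 mice the smallest p that the splits allow is 0.00794. When any 1 mouse was left out, the 3 differences kept their sign at 0.63 or more in size, while the adjusted p rose to between 0.054 and 0.14.

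**Figure D3:**
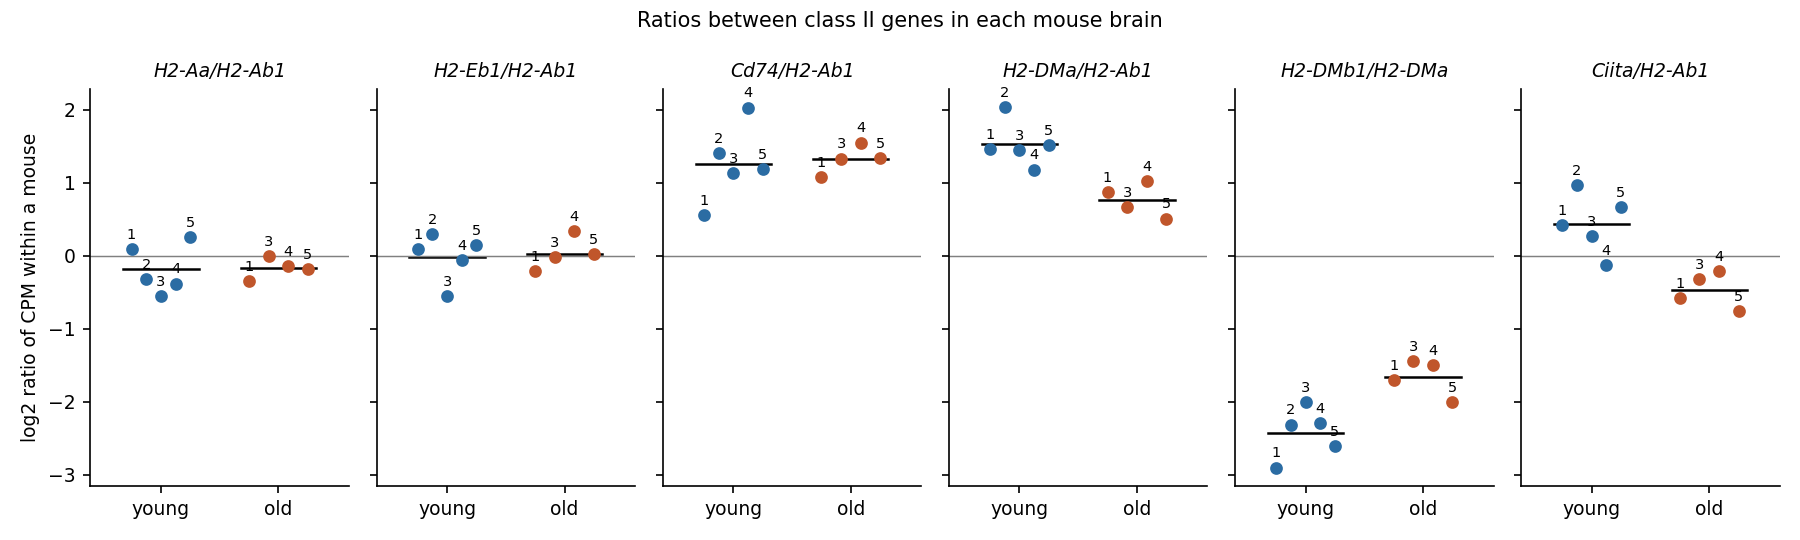
Log2 ratio of CPM between pairs of class II genes within each mouse (young in blue, old in orange, digits for replicates, lines for group means). The 3 ratios on the left have nearly equal means in both ages, whereas H2-DMa/H2-Ab1 and Ciita/H2-Ab1 were lower and H2-DMb1/H2-DMa was higher in old brains.

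The other class II genes were near the limit of detection and were not tested. H2-DMb2, the close copy of H2-DMb1, had 1 to 7 counts in young and 5 to 11 in old libraries. H2-Oa and H2-Ob, the chains of the H2-O inhibitor of H2-DM, had 1 to 4 and 1 to 10 counts in young and 2 to 9 and 8 to 15 counts in old libraries. H2-Eb2 had 0 to 5 counts. H2-Ea-ps, the defective I-E alpha gene of this strain, had 1 count in a single young library and 0 in the old ones. The summed level of these genes was 0.412 to 1.11 CPM in the young and 1.22 to 2.12 CPM in the old brains.

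The proteins that bind class II promoters beside Ciita did not pass the test in either direction. All 7 of them were tested: Rfx5, Rfxank and Rfxap (the RFX complex at the X box), Creb1 (a CREB factor), and Nfya, Nfyb and Nfyc (the NF-Y complex at the Y box). Their log2 fold changes lay between -0.04 (Rfx5, adjusted p = 0.72) and 0.07 (Rfxank, adjusted p = 0.63), with a median of -0.01. Their standard errors were 0.042 to 0.075, smaller than those of the 7 class II genes.

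Several genes on the route from interferon gamma to Ciita were higher in old brains. Of 10 tested genes, 4 rose and 1 fell, with a median log2 fold change of 0.36. Over all tested genes, 6.20% rose and 4.83% fell. Irf8, a transcription factor of microglia and macrophages, rose by 0.78 (SE 0.22, adjusted p = 0.035). The kinase Jak2 rose by 0.27 (SE 0.06, adjusted p = 0.012). The receptor chains went in opposite directions: Ifngr1 rose by 0.35 (SE 0.094, adjusted p = 0.029) and Ifngr2 fell by 0.22 (SE 0.057, adjusted p = 0.025). Jak1 (log2 fold change -0.02, adjusted p = 0.81) and Socs1, an inhibitor of the pathway (0.02, adjusted p = 0.96), did not pass. Irf1 (0.37, adjusted p = 0.13), Spi1 (0.49, adjusted p = 0.17) and Tgfb1 (0.50, adjusted p = 0.075) missed the threshold with all mice. They passed it without young replicate 4 (adjusted p = 0.032, 0.015 and 0.011). In that fit 7 genes of the list were higher and 1 was lower, against 6.33% and 4.38% of all tested genes. Irf8 and Ifngr1 lost their calls without old replicate 4 (adjusted p = 0.058 and 0.09). With 1 mouse left out at a time, between 2 and 7 genes of this list were higher. Ifng itself had 0 counts in the young and at most 1 count in the old libraries, and was not detectable at this depth.

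Among 10 genes that supply peptides in endosomes, 2 were higher in old brains and none was lower, with a median log2 fold change of 0.39. The shares over all tested genes were 6.20% higher and 4.83% lower. Ctss, the cathepsin that trims the invariant chain, rose from 38.5 to 81.4 CPM (log2 fold change 1.06, SE 0.19, adjusted p = 0.0031). Ctsz, a carboxypeptidase, rose from 36.5 to 52.5 CPM (0.52, SE 0.13, adjusted p = 0.018). Ifi30, the thiol reductase of antigen processing, had a log2 fold change of 0.55 (SE 0.20, adjusted p = 0.091) and Ctsd of 0.42 (SE 0.13, adjusted p = 0.058). Lgmn, an asparagine-specific protease, was nearly equal in both ages (0.02, SE 0.059, adjusted p = 0.85). Without young replicate 4, 8 of these 10 genes were higher, the exceptions being Lgmn and Psap (adjusted p = 0.84 and 0.20). In that fit 6.33% of all tested genes were higher.

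None of 4 tested genes of class II turnover passed. March1 and March8, ubiquitin ligases that remove class II molecules, had log2 fold changes of -0.11 (adjusted p = 0.35) and -0.0 (adjusted p = 0.99). Sppl2a, the protease that clears the last fragment of the invariant chain, was at -0.05 (adjusted p = 0.53) and Cd83, which protects class II molecules from March1, at -0.19 (adjusted p = 0.18). Of 6 tested genes on a list of T cell partners, costimulators and related ligands, 3 rose and none fell. Of all tested genes, 6.20% rose and 4.83% fell. Lag3, an inhibitory receptor for class II molecules, rose by 1.16 (SE 0.26, adjusted p = 0.013), Icosl, a ligand of the costimulator Icos, by 0.74 (SE 0.15, adjusted p = 0.0066) and Cd274, the ligand PD-L1, by 0.69 (SE 0.18, adjusted p = 0.026). Cd86, a costimulator of antigen-presenting cells, was at 0.49 (SE 0.32, adjusted p = 0.36), Cd40 at -0.15 (adjusted p = 0.80) and Cd4 at -0.13 (adjusted p = 0.61). Leaving out 1 mouse at a time gave 2 or 3 higher genes.

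**Figure D4:**
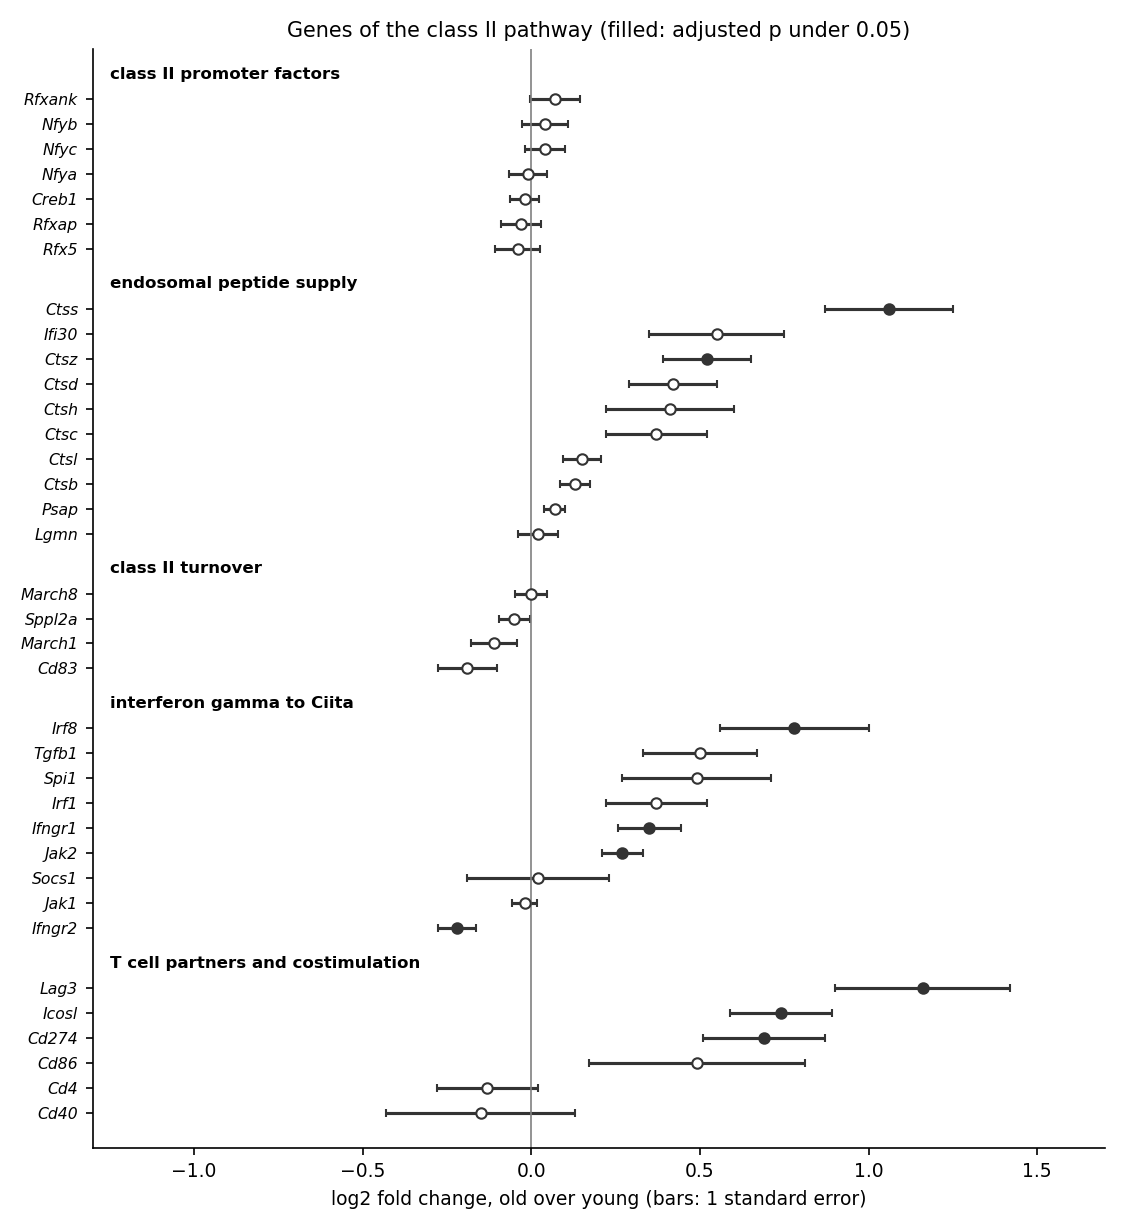
Log2 fold change (old over young) with 1 standard error for tested genes of 5 class II pathway lists, ordered within each list. Filled points passed an adjusted p of 0.05. The 7 promoter factors lie between -0.04 and 0.07, and Ctss (1.06) and Lag3 (1.16) lie furthest to the right.

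Markers of the cells known to carry class II were also compared between the ages. For the counts below, the shares over all tested genes were 6.20% higher and 4.83% lower with all mice. Without young replicate 4, 6.33% were higher. Summed over 12 homeostatic microglia markers, the level was 263 to 296 CPM in 4 young brains, 363 CPM in young replicate 4 and 347 to 407 CPM in the old brains. 4 of the 12 were higher in old brains, with Tmem119 (log2 fold change 0.53, adjusted p = 0.00093) and Selplg (0.45, adjusted p = 0.0011) at the lowest p. Of 14 markers of disease-associated microglia 6 were higher, and 12 without young replicate 4, led by Gpnmb (2.52, adjusted p = 0.00042), Apoe (0.47, adjusted p = 0.0012) and Lyz2 (1.90, adjusted p = 0.0038). Without young replicate 4, Gpnmb was at 3.16 and Lyz2 at 2.62. Their sum was 1480 to 1620 CPM in 4 young brains, 2030 CPM in young replicate 4 and 2210 to 2410 CPM in the old brains. Most of this sum was Apoe, which astrocytes also make in abundance. Summed over the other 13 genes, the level was 161 to 188 CPM in 4 young brains, 295 CPM in young replicate 4 and 265 to 347 CPM in the old brains. Of 9 tested border macrophage markers 5 were higher, among them F13a1 (1.13, adjusted p = 0.0044), Stab1 (0.31, adjusted p = 0.017) and Clec12a (1.38, adjusted p = 0.021), with sums of 28.5 to 32.7 CPM in young and 37.8 to 47.3 CPM in old brains. Young replicate 4 held the highest young sum of this list, at 32.7 CPM, which was below every old brain. The largest part of the sum was Stab1, at 17.5 to 20.6 CPM in young and 20.9 to 26.6 CPM in old brains. Without old replicate 4, 3 of the 9 were higher, and Clec12a no longer passed (1.19, adjusted p = 0.068). The sum of the 7 class II genes was 20.1 to 22.5 CPM in 4 young brains, 38.7 CPM in young replicate 4 and 30.4 to 41.7 CPM in the old brains. With 1 mouse left out at a time, between 3 and 5 markers of homeostatic microglia, 5 and 12 of disease-associated microglia and 3 and 5 of border macrophages were higher. The part of cell numbers in the class II changes was not tested.

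Markers of other class II-bearing cells were unequal in level. Ms4a1 of B cells had 0 to 4 counts per library, Xcr1 of dendritic cells 0 to 1 and Ccr7 0 to 4. On the same lists, Flt3 had 225 to 476 counts, Zbtb46 254 to 499, Ighm 190 to 433, Ebf1 283 to 574 and Pax5 25 to 46. The dendritic list had 1 gene higher (Batf3, 1.25, adjusted p = 0.0027) and 1 lower (Flt3, fell by 0.32, adjusted p = 0.021) of 5 tested. Over all tested genes, 6.20% were higher and 4.83% lower, so a single gene of a short list says little about it. Among 5 tested B and plasma cell genes only Igkc, the kappa light chain, was higher (4.40, adjusted p = 0.0018). It had 222 counts in old replicate 4 and 15 to 65 in the other old libraries, and without that mouse its log2 fold change was 3.38 (adjusted p = 0.00073), or 10.4-fold in place of 21.0-fold. The T cell list had 3 tested genes and no call, with a median log2 fold change of -0.23. Trbc2 was at -0.31 (adjusted p = 0.16), Trac at -0.23 (adjusted p = 0.67) and Lck at -0.18 (adjusted p = 0.72). Cd8a, on the same list but not tested, had 0 to 3 counts in young and 5 to 16 in old libraries. The monocyte list had 1 tested gene, Fn1, which was higher (0.34, adjusted p = 0.013). Chil3, another monocyte gene, reached 123 counts in old replicate 4. All 5 red blood cell genes were higher (median 1.26), from 86.1 to 116 CPM in sum in young to 128 to 409 CPM in old brains, the highest being old replicate 4. Without that mouse 4 of the 5 were higher, with a median of 0.82. Likewise without it, H2-Aa, H2-Ab1 and H2-Eb1 still passed (adjusted p = 0.034, 0.026 and 0.039), while H2-DMb1 did not (0.79, adjusted p = 0.07).

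The lists of non-immune cells held calls as well, beside shares of 6.20% higher and 4.83% lower over all tested genes. Of 8 endothelial genes 5 were higher (median 0.24), led by Ly6c1 (0.94, adjusted p = 5e-05), and of 8 astrocyte genes only Gfap was higher (1.07, adjusted p = 0.012). Of 8 oligodendrocyte genes 4 were higher and 1 lower (median 0.09), of 8 neuronal genes 2 were lower (median -0.02), of 7 choroid plexus genes 1 was lower (median 0.01), and none of 8 genes of meninges and fibroblasts passed (median 0.11). Without old replicate 4, 3 endothelial and 2 oligodendrocyte genes were higher, 1 neuronal gene was higher and 1 lower, and 1 gene of meninges and fibroblasts was lower. That fit called 961 of 18567 tested genes higher and 742 lower. The astrocyte sum was 4330 to 4420 CPM in 4 young brains, 5020 CPM in young replicate 4 and 4810 to 5030 CPM in the old brains. Young replicate 4 thus lay within the old range for this sum too. The largest part of the sum was Slc1a2, at 2160 to 2340 CPM in the 4 young brains, 2530 CPM in young replicate 4 and 2270 to 2440 CPM in the old brains.

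**Figure D5:**
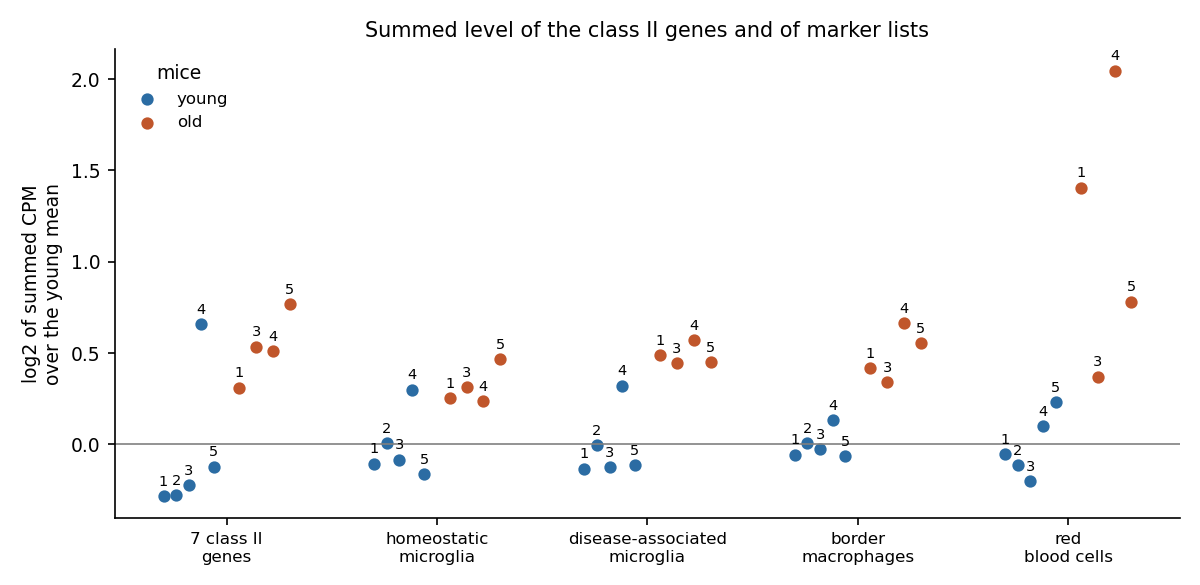
Log2 of the summed CPM of the 7 class II genes and of 4 marker lists in each mouse, relative to the young mean (young in blue, old in orange, digits for replicates). Young replicate 4 lies within the old range for the class II genes and homeostatic microglia. It lies just below that range for disease-associated microglia and below it for border macrophages. Most of the disease-associated sum is Apoe, and without Apoe this mouse is within the old range (295 CPM, against 265 to 347 CPM). Old replicate 4 is highest for red blood cells.

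Other genes followed a similar course over the 9 mice. A mean profile was built from Cd74, H2-Aa, H2-Ab1 and H2-Eb1 as log2 CPM relative to each gene's young mean. It stood at -0.13, -0.44, -0.26, 0.8 and 0.03 in the young and at 0.61, 0.9, 0.8 and 1.22 in the old brains. Over 16545 genes compared, the smallest root mean square difference from it was 0.134 log2 units, for Irf8, against a median of 0.699. Irf8 was at 4.7, 3.98, 4.33, 9.95 and 4.51 CPM in the young and at 8.98, 9.59, 9.47 and 10.3 CPM in the old brains, so that young replicate 4 lay within the old range.

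Fcgr1, the high-affinity Fc receptor of macrophages, came next with 0.148 and was at 2.2, 1.83, 2.13, 3.91 and 2.9 CPM in the young and at 3.72, 4.23, 4.92 and 4.93 CPM in the old brains. The other 8 of the 10 nearest genes were AU020206 (0.188), Cxcl16 (0.203), Was (0.205), C5ar2 (0.206), 9930111J21Rik2 (0.21), Anxa3 (0.222), B2m (0.223) and Tlr4 (0.223). B2m, the light chain of class I molecules, ranged from 48.6 to 74.5 CPM in young and from 91.3 to 124 CPM in old brains. Within the family, H2-Ab1 (0.137) and H2-Eb1 (0.163) lay closest to the mean profile that they helped to build, H2-Aa (0.216) and Cd74 (0.311) further off. H2-DMb1 (0.424), H2-DMa (0.592) and Ciita (0.694), which had no part in the profile, lay further from it than these. The 10 genes were picked as the nearest of all those compared, so a larger distance than theirs says little. These distances are a description of 9 libraries and carry no test.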

How the data were processed

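Whole-brain polyA RNA of 5 young and 4 old mice was sequenced, and the samples were grouped by their titles. The authors trimmed reads with Trimmomatic, aligned them to GRCm38 (mm10 per the labels) with STAR and counted unique exon reads per gene with featureCounts. Whether strand was used is not given in the sources used here. The deposited counts are whole numbers. The normalized counts, a linear signal, were made by the authors by dividing counts by a DESeq2 size factor per library. The deposited TPM values were also made by the authors, with gene lengths not stated. In each of the tables, 1 column could not be matched to a sample and was not analysed here. The authors' fold changes were not used. Of 49315 gene IDs, 48970 matched a symbol.

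Counts were tested with edgeR 4.0.16 in R 4.3.3: filterByExpr (minimum count 10, minimum total 15), TMM, quasi-likelihood fit on age, Benjamini-Hochberg adjustment over 18492 genes. The common coefficient of biological variation was 6.71%. The fit was tested on simulated data. CPM use TMM library sizes, and log2 CPM a prior count of 2. Ratios used an exact permutation test in Python. Alternatives were DESeq2 1.42.0, limma 3.58.1 on log2(TPM + 1), log2(TPM + 0.1) and log2(normalized counts + 1), 2 other size factors, no filter, a mean CPM of at least 1, a replicate block and each mouse left out. Robust dispersions and the omission of both replicates 4 were added after the data were seen.

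The genes and lists were chosen with earlier results of these data known. Named were the 7 genes, any gene of the 6 pathway lists, up to 3 genes with the lowest p from each of 14 cell type lists, and the 10 genes with the most similar profile among those with a mean log2 CPM of at least 0. Genes of the cell type lists that are named with counts or CPM alone were chosen after their values were seen. No 2 libraries of an age agreed within sampling noise. A few genes of the lists are counted but not reported here by name. P-values measure the spread between individual mice.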

Additional observations from a re-analysis of the deposited data

Results flagged for a closer look

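7 groups of values held a mouse whose gap to its nearest neighbour, as a share of the range of its age group, exceeded Dixon's 95% critical value. 66 groups of values were looked at, of which chance alone gives about 1 in 20, or 3.3. In young replicate 4, Cd74 was far above the other young brains (share 0.72), and so was H2-DMa (0.734). The summed level of the endosomal peptide supply list was also high in that mouse (0.72), as were those of disease-associated microglia (0.719) and astrocytes (0.857). The summed level of the class II promoter factors was low in it (0.903): its sum was 209 CPM, and those of the other young brains lay between 218 and 219 CPM. In old replicate 4 the summed level of the astrocyte list was high (0.924): its sum was 5030 CPM, and those of the other old brains lay between 4810 and 4820 CPM. H2-Aa, H2-Ab1, H2-Eb1, H2-DMb1 and Ciita held no mouse this far off in either age.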

How the results depend on the processing

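The chains H2-Aa, H2-Ab1 and H2-Eb1 and H2-DMb1 were higher in old brains in every fit run, and kept their calls under other size factors, DESeq2, limma and other filters. Cd74 passed in limma on log2(TPM + 1) (0.70, adjusted p = 0.0037) and log2(TPM + 0.1) (0.76, adjusted p = 0.0023), and without both replicates 4 (1.31). On these TPM scales the median of all genes moved to -0.142 and -0.162, H2-DMa turned to -0.07 in both, and 307 and 304 genes were higher and 287 and 296 lower. With the fold threshold 421 genes were higher and 74 lower. Leaving out 1 mouse at a time gave ranges of 0.51 to 1.31 for Cd74, 0.69 to 0.97 for H2-Aa, 0.69 to 1.06 for H2-Ab1, 0.75 to 1.08 for H2-Eb1, 0.05 to 0.17 for H2-DMa, 0.72 to 1.01 for H2-DMb1 and -0.11 to 0.02 for Ciita, which was at 0.02 without old replicate 1. It gave 1 to 5 called class II genes, 852 to 1148 genes higher and 585 to 794 lower. The cause was not tested.

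The ratios ranged from -0.08 to 0.12 (H2-Aa/H2-Ab1), -0.09 to 0.12 (H2-Eb1/H2-Ab1), -0.11 to 0.25 (Cd74/H2-Ab1), -0.85 to -0.63 (H2-DMa/H2-Ab1), 0.64 to 0.87 (H2-DMb1/H2-DMa) and -1.05 to -0.77 (Ciita/H2-Ab1) with 1 mouse left out. Without both replicates 4, H2-Aa/H2-Ab1 was -0.05, H2-Eb1/H2-Ab1 -0.07, H2-DMa/H2-Ab1 -0.94, H2-DMb1/H2-DMa 0.74 and Ciita/H2-Ab1 -1.13, with adjusted permutation p of 0.086 or more. With fewer mice there are fewer splits.

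Replicate numbers did not pair the samples: same-numbered mice correlated at 0.17, -0.118, 0.088 and -0.024 in their deviations from the age means, and the old mice most like young replicates 1, 3, 4 and 5 were old replicates 1, 4, 4 and 4. With the replicate block, 2 class II genes were called, H2-Aa (0.68, adjusted p = 0.073) and H2-Ab1 (0.71, adjusted p = 0.071) no longer passing. Sign flips of the 4 numbered pairs cannot go below p = 0.125, and this block gave -0.02 for H2-Aa/H2-Ab1, -0.63 for H2-DMa/H2-Ab1, 0.79 for H2-DMb1/H2-DMa and -0.77 for Ciita/H2-Ab1 (adjusted permutation p = 0.25 for the last 3). At 14 to 317 counts per library, depth limits how small a change could be seen.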
